A study of Homo sapiens with 12 samples.

Results

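The 10 long non-coding RNAs described here are MALAT1, NEAT1, HOTAIR, UCA1, SNHG1, GAS5, MIR31HG, LINC02434, FAM230C and KLF3-AS1, out of 61044 genes listed in a table of estimated gene counts. They were taken by symbol. Of them, FAM230C had been chosen by the size of its change against NC in all 3 hairpin groups, and LINC02434 by its change in shRNA3, which also differed from the other hairpins. For KLF3-AS1 the values that chose it are not recorded, and it was treated in the same way after its levels were seen, so the levels of these 3 are given as a description and without a test. For the other 7 no choice by value is recorded, but the list as a whole was drawn up with results of these data known. All 10 passed the filter on low counts, as did 17532 genes in all. The RNA came from SCC-15, an established human line of oral squamous cell carcinoma. Cells carried a hairpin RNA that served as negative control (NC), or else 1 of 3 short hairpins directed at FMOD, the gene of the matrix proteoglycan fibromodulin. The hairpin groups are shRNA1, shRNA2 and shRNA3, and RNA was taken at 48 h. Each of the 4 groups had 3 libraries, 12 in all, every group is the same single cell line, and nothing says that the libraries came from separate cultures. P-values therefore measure the spread between these libraries, which may be technical.

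Long non-coding RNAs are transcribed and often spliced like messenger RNAs but code for no protein. Some stay in the nucleus and organise bodies there: NEAT1 is the scaffold of paraspeckles, and MALAT1 is a highly abundant transcript of nuclear speckles made from the neighbouring gene. Others are precursors, with small nucleolar RNAs (SNHG1, GAS5) or a microRNA (MIR31HG) cut from their introns. HOTAIR and UCA1 are best known for raised levels in carcinomas.

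Library totals ran from 17287017 to 19567289 counts, and levels are given as CPM (counts scaled to a common library size) after TMM scaling by edgeR unless stated. FMOD itself had 2, 2 and 3 counts in the NC libraries and 0 in each of the 9 hairpin libraries, at or under the limit of 3 counts, so the targeted gene gives no usable fold change. NC differed from every hairpin at most genes. The correlation of log CPM across genes between an NC and a hairpin library lay between 0.773 and 0.795, against at least 0.987 between NC libraries. The markers of squamous epithelium summed to 2161 to 2370 CPM in NC and 1324 to 2264 CPM in the hairpin groups, with none at 0. Within that sum KRT5 fell for all 3 hairpins, from a mean of 1009 CPM to 21.4, 80.2 and 74.9 CPM, as did CDH1, from 323 to 38.2, 53.4 and 66.1 CPM, while KRT14, KRT17 and KRT6A rose for all 3. The leukocyte markers, almost all of it CD74, summed to 660 to 731 CPM in NC, where PTPRC was at 0, and to at most 1.6 CPM in any hairpin library. The fibroblast list summed to 59.8 to 63.1 CPM in NC, with DCN at 0, and to 374 to 899 CPM in the hairpin libraries, most of it VIM, which rose for all 3. COL1A2, PDGFRB and LUM fell for all 3, from means of 4.81, 10.7 and 1.15 CPM in NC to at most 1.10 CPM. LUM was at 0 in shRNA1 and shRNA3, and COL1A2, COL3A1 and DCN were at 0 in shRNA2. COL1A1 fell for shRNA1 only, from a mean of 41.7 CPM in NC to 17.3 CPM. Its means in shRNA2 and shRNA3 were 44.6 and 65.9 CPM, with no call. With NC as the only reference for all 3 hairpins, the hairpin and any other difference between NC and hairpin cells cannot be told apart, nor can fewer cells of a type and less RNA per cell.

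Libraries 1 and 2 of shRNA3 stood apart from library 3. Their profiles correlated at 0.987 with each other, but at 0.911 and 0.908 with library 3 of their own group, which in turn correlated at 0.972 to 0.981 with the shRNA1 and shRNA2 libraries. Their TMM factors were 0.771 and 0.795, against 0.979 to 1.11 elsewhere. Histone-cluster genes held 0.0691% and 0.0763% of their counts, the highest shares of the 12 libraries, and 0.0314% in library 3. Ribosomal RNA genes held 0.676% to 1.49% and mitochondrial genes 1.63% to 1.67%, both inside the range of the other libraries. The part of these differences in the results was not tested, and the members' values for shRNA3 libraries 1 and 2 are therefore given apart from library 3.

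Against NC, 4 of the 7 tested long non-coding RNAs passed an edgeR adjusted p of 0.05 for shRNA1, 1 of them higher and 3 lower, where 57.4% of all genes passed, 26.8% higher and 30.6% lower. For shRNA2 2 of 7 passed, 1 in each direction, with a background of 53.0%, 24.6% higher and 28.4% lower. For shRNA3 3 of 7 passed, all higher, with a background of 53.9%, 26.4% higher and 27.6% lower. With library totals in place of TMM scaling the 3 calls for shRNA3 were 1 higher and 2 lower: UCA1 stayed, SNHG1 and GAS5 were lost, and NEAT1 and HOTAIR were called lower. The 3 libraries of a hairpin did not overlap those of NC at 74.3%, 79.6% and 57.5% of genes for shRNA1, shRNA2 and shRNA3, so a gap between groups is common here. Shares of this size are near or below the background, so the count by itself sets these genes apart from no others. The 3 comparisons share the NC libraries. UCA1 was higher for all 3 hairpins, which 16.0% of all genes were. No member was lower for all 3, which 19.7% of genes were.

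**Figure D1:**
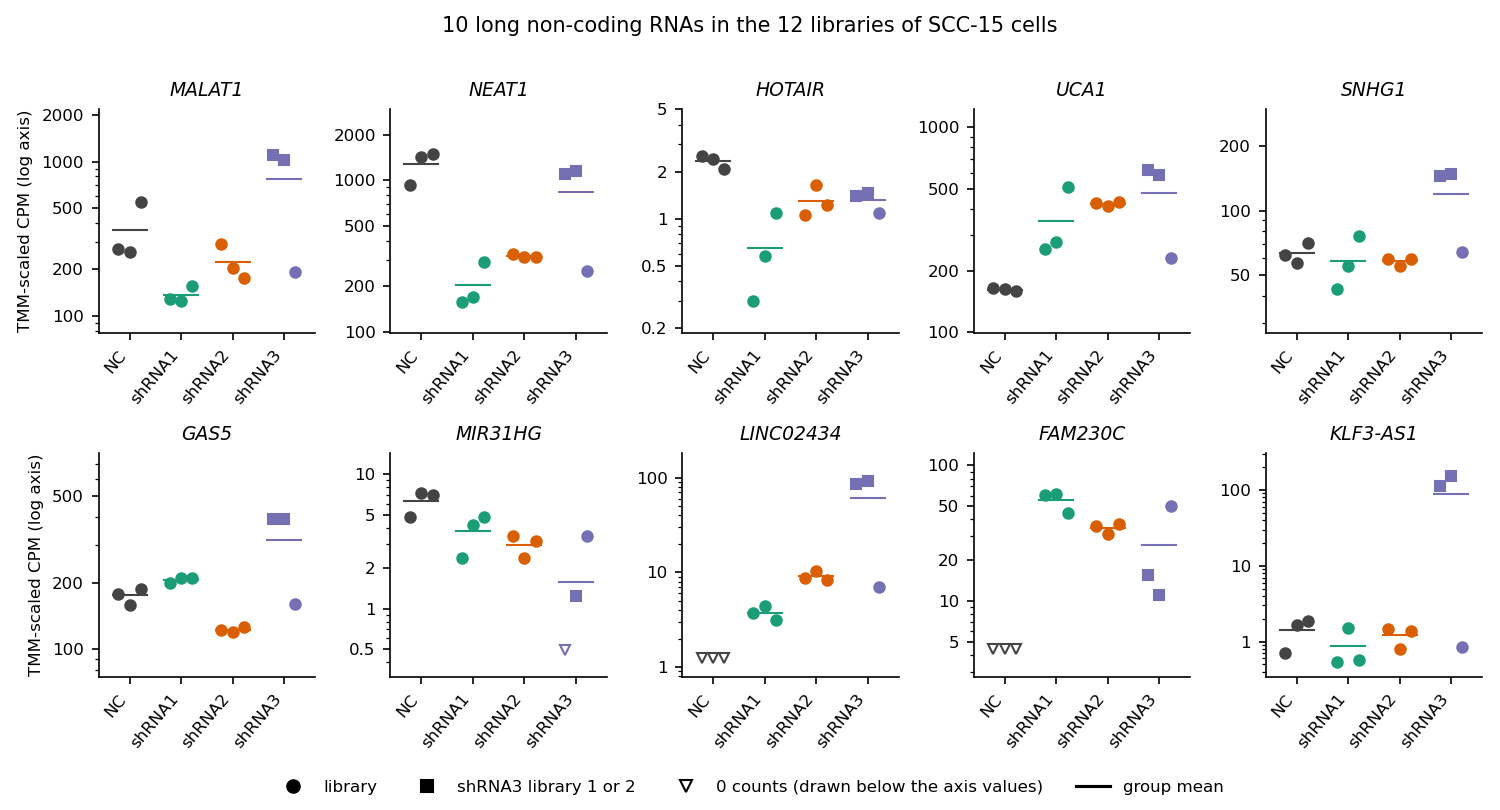
Level of each long non-coding RNA (TMM-scaled CPM, log axis) in the 3 libraries of each group, with a line at the group mean. Squares are shRNA3 libraries 1 and 2, which sit far from shRNA3 library 3 for every gene but HOTAIR, and open triangles mark 0 counts, as in NC for LINC02434 and FAM230C.

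Per kilobase of exon, NEAT1, GAS5, MALAT1 and UCA1 were the most abundant in NC. NEAT1 stood at 41.2 to 65.1 CPM per kilobase, GAS5 at 43.8 to 51.9, MALAT1 at 29.4 to 61.6 and UCA1 at 38.3 to 39.6. The ranges of NEAT1, GAS5 and MALAT1 overlapped, as did those of MALAT1 and UCA1. SNHG1 followed at 15.2 to 18.7, MIR31HG at 6.44 to 9.65, HOTAIR at 0.799 to 0.97 and KLF3-AS1 at 0.146 to 0.389, each below the lowest NC value of the gene before it. In shRNA1 and shRNA2 the order was led by UCA1, at 61.3 to 123 and at 100.2 to 104 CPM per kilobase. By this measure it was above each other member in every library there. The length used was that of all annotated exons of a gene merged, 4152 bases for UCA1 and 3631 for GAS5. Their longest annotated transcripts have 2687 and 1698 bases, so the places of GAS5 and UCA1 in these orders depend on the length chosen.

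NEAT1 (ENSG00000245532, chromosome 11, 65422774 to 65445540 on the plus strand in GRCh38) fell in shRNA1 and shRNA2. Its NC libraries held 938, 1422 and 1483 CPM. The shRNA1 libraries held 158, 169.6 and 289.8 CPM and the shRNA2 libraries 325, 315 and 313 CPM, all under the lowest NC library. The fall was 6.22-fold for shRNA1 (log2 fold change -2.64, SE 0.475, edgeR adjusted p = 0.000647) and 4.03-fold for shRNA2 (log2 -2.01, SE 0.464, adjusted p = 0.00343). The shRNA3 libraries held 1108, 1151 and 254 CPM, so that the first pair lay within the NC range and the third with the other hairpins. The log2 difference of shRNA3 from NC was -0.61 with an edgeR adjusted p of 0.27, and -2.30 with an adjusted p of 0.000524 when library 3 alone stood for the group. With library totals all 3 shRNA3 libraries, at 854, 914 and 270.1 CPM, lay below the lowest NC library at 1026 CPM, and NEAT1 was called lower (log2 -1.06, edgeR adjusted p = 0.0405).

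MALAT1 (ENSG00000251562, chromosome 11, 65497688 to 65506516, plus strand) lies downstream of NEAT1 and shared part of its pattern. NC held 271, 259.8 and 544 CPM, with library 3 above the other two. That NC library also had 0.0203% of its counts in 7SL genes, the highest share in NC, where the lowest was 0.00426%. The 7SL share was 0.0156% to 0.0251% in shRNA1, where MALAT1 was low. It was 0.0177% to 0.0262% in shRNA3 libraries 1 and 2, where MALAT1 was high. The part of the 7SL share in the MALAT1 values was not tested. In shRNA1 MALAT1 stood at 129, 124 and 157 CPM, below all 3 NC libraries, a fall of 2.63-fold (log2 -1.39, SE 0.522, edgeR adjusted p = 0.0388). That call was lost without NC library 3 (log2 -0.96, adjusted p = 0.167) and without each shRNA1 library in turn (adjusted p of 0.0728 to 0.107). The replicate block ended it as well (adjusted p = 0.0565), as did keeping genes of low count (0.116). In shRNA2 the values were 294, 204 and 176 CPM, overlapping NC (log2 -0.67, edgeR adjusted p = 0.294). In shRNA3 they were 1099, 1022 and 191 CPM: libraries 1 and 2 were above every other library of the study, and library 3 was below NC. The group difference of 1.11 on the log2 scale had an edgeR adjusted p of 0.0916. Without library 3 it was 1.56 with an adjusted p of 0.00143.

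RefSeq (GRCh38.p14) gives MALAT1 a pair of start regions in its table of promoters, 250 bases before to 50 bases after a start. The upstream window, chr11:65497488-65497787, holds 5 copies of GGGCGG on either strand, the GC box, present in 45.0% of 35116 promoters, and 37 CG dinucleotides against a median of 14. The downstream window, chr11:65498795-65499094, holds a TATAAA that begins 30 bases before the start and no GC box. A TATAAA is found in 11.5% of promoters. The other motifs searched were CCAAT, found in 34.6%, TGANTCA, the AP-1 site, in 7.71%, and CACGTG, the E-box, in 7.26%. The stretch around it is the first of the sequences shown here, because MALAT1 is among the members that differed most within shRNA3. Capitals mark TATAAA, and both strands were searched.
MALAT1, downstream start: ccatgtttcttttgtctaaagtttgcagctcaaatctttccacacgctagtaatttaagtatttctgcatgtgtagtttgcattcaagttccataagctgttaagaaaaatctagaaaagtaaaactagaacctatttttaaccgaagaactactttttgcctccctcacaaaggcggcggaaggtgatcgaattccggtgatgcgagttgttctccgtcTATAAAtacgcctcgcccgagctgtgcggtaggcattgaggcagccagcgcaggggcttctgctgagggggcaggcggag

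The nearest coding gene on the NEAT1 side did not follow the same pattern. FRMD8, 9249 bases from NEAT1, had means of 132, 158, 54.5 and 97.4 CPM in NC, shRNA1, shRNA2 and shRNA3, and it fell only for shRNA2 (log2 -1.27) among the 3 tests against NC. The difference between those tests was not itself tested. In shRNA3 libraries 1, 2 and 3 FRMD8 stood at 96.0, 94.6 and 102 CPM, without the gap that MALAT1 and NEAT1 show there.

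Of 8 genes for proteins of the paraspeckle, 5, 6 and 5 rose against NC for shRNA1, shRNA2 and shRNA3, and none fell. Over all genes 26.8%, 24.6% and 26.4% rose and 30.6%, 28.4% and 27.6% fell. The median log2 difference of the 8 was 0.84, 1.06 and 0.86, against -0.02, -0.05 and -0.03 over all genes. With library totals 5, 6 and 4 of the 8 rose and none fell. Their medians were then 0.75, 0.92 and 0.55, against -0.10, -0.18 and -0.35 over all genes. HNRNPK and HNRNPH3, a pair of RNA-binding proteins, rose for all 3 hairpins. HNRNPH3 went from 98.6 CPM in NC to 166 and 249 CPM in shRNA1 and shRNA2 and to 337, 314 and 160.2 CPM in the shRNA3 libraries. NONO and SFPQ, the core pair that binds NEAT1, had means of 287, 332, 408 and 425 CPM and of 129, 463, 373 and 219 CPM. In the shRNA3 libraries SFPQ stood at 121, 119.7 and 415 CPM. NONO rose for shRNA2 and shRNA3, and SFPQ for shRNA1 and shRNA2.

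**Figure D2:**
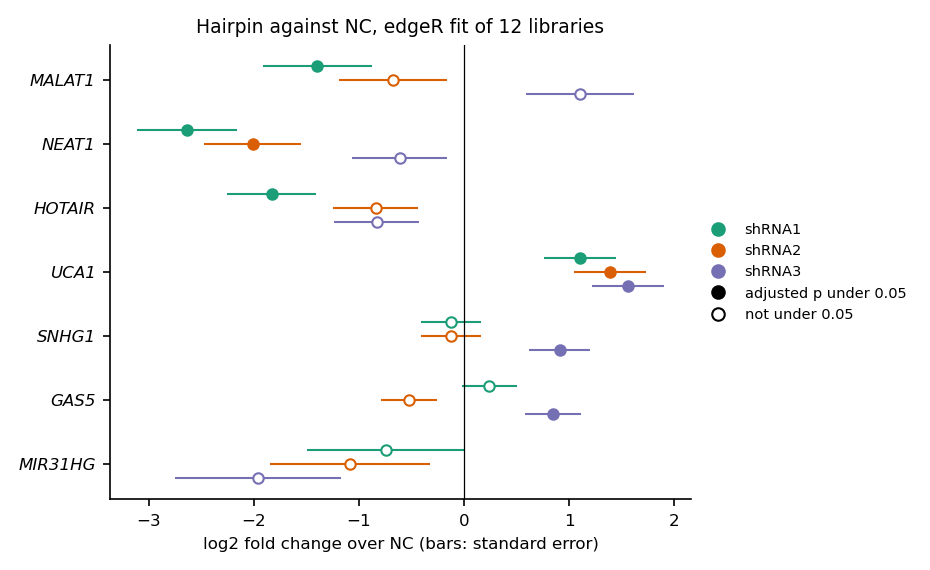
Log2 fold change against NC of the 7 tested long non-coding RNAs for each hairpin, with its standard error as a bar. Filled points have an edgeR adjusted p under 0.05: UCA1 is filled and to the right for all 3 hairpins, NEAT1 is filled and to the left for shRNA1 and shRNA2.

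UCA1 (ENSG00000214049, chromosome 19, 15828206 to 15836326, plus strand), a cytoplasmic RNA first found in urothelial carcinoma, rose for each hairpin. Its NC libraries lay close together at 164, 162 and 159 CPM. The shRNA1 libraries held 255, 277 and 513 CPM, the shRNA2 libraries 426, 416 and 433 CPM and the shRNA3 libraries 617, 585 and 231 CPM. All 9 hairpin libraries were above all 3 NC libraries. Over all genes, the 9 did not overlap NC, above or below, at 44.8%. The rise was 2.15-fold for shRNA1 (log2 1.11, SE 0.341, edgeR adjusted p = 0.0161), 2.63-fold for shRNA2 (log2 1.39, SE 0.343, adjusted p = 0.00509) and 2.95-fold for shRNA3 (log2 1.56, SE 0.345, adjusted p = 0.00264). Without shRNA1 library 3 the first call was lost (log2 0.72, adjusted p = 0.0823), and with shRNA3 library 3 alone the last was lost (log2 0.54, adjusted p = 0.143). No pair of hairpins differed in UCA1 by the edgeR test. The log2 difference of shRNA1 from shRNA2 was -0.29, with a 95% interval of -1.06 to 0.49. UCA1 shares 261 bases with LINC01764 on the other strand, which had at most 21 counts. Reads of genes on opposite strands cannot be told apart here, since the kit as named does not mark strand and no source used here says whether counting took strand into account.

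HOTAIR (ENSG00000228630, chromosome 12, 53962308 to 53974956, minus strand) lies in the HOXC cluster and is known for its binding to the Polycomb complex PRC2 and the demethylase LSD1. It was sparse, with 41 to 50 counts in each NC library and 6 to 29 in each hairpin library. Its NC level was 2.52, 2.41 and 2.08 CPM. In shRNA1 it was 0.298, 0.581 and 1.08 CPM, in shRNA2 1.05, 1.63 and 1.22 CPM and in shRNA3 1.41, 1.46 and 1.09 CPM. All 9 hairpin libraries were below all NC libraries, and HOTAIR was the only member of which that held with TMM scaling. Such a gap is common here: with TMM scaling the 9 did not overlap NC, above or below, at 44.8% of all genes. With library totals it also held for NEAT1 and MIR31HG, and the share of all genes under that scaling is not given here. The fall of HOTAIR passed the edgeR test in shRNA1 (3.56-fold, log2 -1.83, SE 0.421, adjusted p = 0.0031). In shRNA2 and shRNA3 the log2 differences were -0.84 and -0.83 with edgeR adjusted p of 0.0995 and 0.105. The shRNA2 difference passed with only the 6 libraries compared (log2 -0.84, adjusted p = 0.0139), and the shRNA3 difference with library totals (log2 -1.18, adjusted p = 0.0282). HOTAIR was also the only member at which shRNA3 libraries 1 and 2 lay within the other 7 hairpin libraries.

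Around HOTAIR, HOXC11 overlaps it on the opposite strand, and had means of 2.79, 3.81, 3.53 and 2.92 CPM in the 4 groups with no call. HOXC10, the next coding gene, had means of 18.4, 19.7, 24.3 and 31.6 CPM and rose for shRNA3. Among 15 other long non-coding RNAs of the HOX clusters, 10 passed the filter, and against NC 1, 3 and 4 rose and 2, 1 and 2 fell. Over all genes 26.8%, 24.6% and 26.4% rose and 30.6%, 28.4% and 27.6% fell. HAGLR, at the HOXD cluster, fell for all 3 hairpins from 24.8, 22.4 and 18.4 CPM in NC to between 0.484 and 2.88 CPM. HOXC-AS2, a neighbour in the HOXC cluster, rose for all 3 from a mean of 0.417 CPM to 0.889, 0.928 and 2.16 CPM. HOTAIRM1 of the HOXA cluster had means of 16.2, 18.4 and 32.8 CPM in NC, shRNA1 and shRNA2, stood at 129.6, 139.8 and 21.0 CPM in the shRNA3 libraries, and rose for shRNA3. Of 8 genes of PRC2 and the LSD1 complex, 3, 4 and 2 rose and 2, 0 and 0 fell, against the same shares of all genes. With library totals 2, 2 and 2 rose and 2, 0 and 1 fell. EZH2, a methyltransferase of PRC2, rose for all 3 hairpins from 24.8 to 65.1, 69.7 and 56.6 CPM (49.0, 47.3 and 73.4 CPM in the shRNA3 libraries). RCOR1, the corepressor partner of LSD1, also rose for all 3, from 39.8 to 111, 93.7 and 109 CPM. EZH1 and RBBP4 fell for shRNA1, from means of 45.3 and 124 CPM in NC to 18.2 and 79.5 CPM, with no call for the other hairpins.

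SNHG1 (ENSG00000255717, chromosome 11, 62851988 to 62855914, minus strand) and GAS5 (ENSG00000234741, chromosome 1, 173863900 to 173868882, minus strand) both carry small nucleolar RNAs in their introns. Their spliced RNAs are known targets of nonsense-mediated decay, and GAS5 was named for its rise in growth-arrested cells. GAS5 RNA is known to begin with a run of pyrimidines, the 5′ terminal oligopyrimidine start also found on messenger RNAs of ribosomal proteins. The first 30 bases of transcripts in GENCODE release 29 are shown for both and for a pair of other hosts, each time the transcript with the longest such run, because these 4 genes were among those high together in shRNA3 libraries 1 and 2. Capitals mark the unbroken run of C and T from the first base.
GAS5-210: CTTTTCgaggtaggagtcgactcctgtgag
SNHG1-203: CTCCTgtctgcaggatttacgcgcacgttg
SNHG12-209: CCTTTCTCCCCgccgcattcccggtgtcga
SNHG3-203: CCTTTTTggagacagattcgcagtggtcgc

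A start with C and at least 4 further pyrimidines was found in 6 of 29 GAS5 transcripts and in 1 of 25 SNHG1 transcripts. Over GAS5, SNHG1 and 13 other host genes it was found in 27 of 205 transcripts, 13.2%, and in 9 of the 15 genes. Over all 206694 transcripts the share was 2.41%. SNHG7, SNHG15, SNHG17, SNHG32 and EPB41L4A-AS1 had no transcript with such a start. With TMM scaling they too were above the 7 other hairpin libraries in shRNA3 libraries 1 and 2. SNHG16 had such a start but overlapped the other libraries, and SNHG20 had none and overlapped them. The remaining hosts, GAS5 and SNHG1 included, had such a start and were above. A link between start and level was not tested. Annotated starts were used, and where transcription began in these libraries was not measured.

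SNHG1 stood at 62.3, 57.1 and 70.4 CPM in NC, at 43.2, 55.0 and 76.2 CPM in shRNA1 and at 59.3, 55.2 and 59.6 CPM in shRNA2, with overlapping groups and log2 differences of -0.12 and -0.12 (edgeR adjusted p of 0.739 for both; 95% intervals of -0.78 to 0.54 and -0.79 to 0.54). In shRNA3 it stood at 145, 149 and 64.2 CPM. The rise of 1.88-fold for shRNA3 (log2 0.91, SE 0.289, edgeR adjusted p = 0.0191) came from libraries 1 and 2, and with library 3 alone the log2 difference was 0.05 (adjusted p = 0.871). SLC3A2, whose gene starts 188 bases away on the opposite strand, had means of 768, 552, 944 and 679 CPM, with 672, 690.2 and 674 CPM in the shRNA3 libraries. It fell for shRNA1 (log2 -0.48, edgeR adjusted p = 0.0289), with no call for the other hairpins. WDR74, the nearest coding gene on the other side at 10179 bases, had means of 28.2, 84.2, 46.4 and 32.7 CPM and rose for shRNA1. In the shRNA3 libraries it stood at 15.3, 16.3 and 66.4 CPM, so that libraries 1 and 2 were low where SNHG1 was high.

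GAS5 stood at 179, 159 and 188 CPM in NC. The shRNA1 libraries held 200.4, 212 and 210.4 CPM, all above NC, and the shRNA2 libraries 122, 119 and 126 CPM, all below NC. Neither difference passed the edgeR test (log2 0.24, adjusted p = 0.456, and log2 -0.52, adjusted p = 0.121). The shRNA2 difference passed with library totals (log2 -0.66, adjusted p = 0.015) and with only the 6 libraries compared (log2 -0.52, adjusted p = 2.87e-06). The shRNA3 libraries held 395, 395 and 159.7 CPM. The rise of 1.80-fold for shRNA3 (log2 0.85, SE 0.268, adjusted p = 0.0185) again came from libraries 1 and 2. With library 3 alone the difference changed sign, to -0.11 (adjusted p = 0.47). With library totals in place of TMM scaling neither SNHG1 (log2 0.51, edgeR adjusted p = 0.0896) nor GAS5 (log2 0.44, adjusted p = 0.0771) passed for shRNA3. With only the 6 libraries compared neither passed (adjusted p of 0.0559 and 0.085). Leaving out NC library 2, shRNA3 library 1 or shRNA3 library 2 ended both calls, and leaving out NC library 1 ended that of SNHG1 (edgeR adjusted p of 0.0531 to 0.0685 in these fits). Under that scaling the median of all genes moved by -0.32 on the log2 scale for shRNA3 against NC and by -0.13 for shRNA2. ZBTB37, which overlaps GAS5 on the opposite strand, had means of 7.66, 11.1, 15.1 and 13.5 CPM and rose for shRNA2 and shRNA3.

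Of the 13 other host genes of small nucleolar RNAs, 2, 1 and 5 rose and 3, 5 and 0 fell for shRNA1, shRNA2 and shRNA3. Over all genes 26.8%, 24.6% and 26.4% rose and 30.6%, 28.4% and 27.6% fell. The median log2 difference of the 13 hosts was -0.20, -0.51 and 0.53. With library totals the shRNA3 counts became 3 higher and 2 lower. SNHG17 rose for all 3 hairpins, from 17.9, 18.8 and 17.8 CPM in NC to between 36.4 and 70.5 CPM. SNHG15 rose for shRNA1 and shRNA3, with means of 26.1, 93.3 and 47.9 CPM in NC, shRNA1 and shRNA2 and with 191, 206 and 62.6 CPM in the shRNA3 libraries. SNHG5 fell for shRNA1 and shRNA2, with means of 86.9, 40.3 and 29.2 CPM in NC, shRNA1 and shRNA2 and with 83.2, 88.3 and 32.0 CPM in the shRNA3 libraries. In shRNA3 libraries 1 and 2, 11 of the 13 were above all 7 other hairpin libraries, with a median ratio of 1.94, where 28.8% of all genes were above. With library totals it was 7 of 13, where 17.9% of all genes were above. Of 10 factors of nonsense-mediated decay, 3, 2 and 3 rose and 1, 1 and 1 fell. The shares of all genes that rose and fell are those given for the hosts. With library totals 2, 2 and 3 of the factors rose and 0, 2 and 4 fell. UPF3B rose for all 3 hairpins, from 18.9 to 65.7, 45.8 and 52.2 CPM (34.9, 47.4 and 74.3 CPM in the shRNA3 libraries), and SMG6, an endonuclease of the pathway, fell for all 3, from 44.3 to 32.4, 26.5 and 25.1 CPM.

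**Figure D3:**
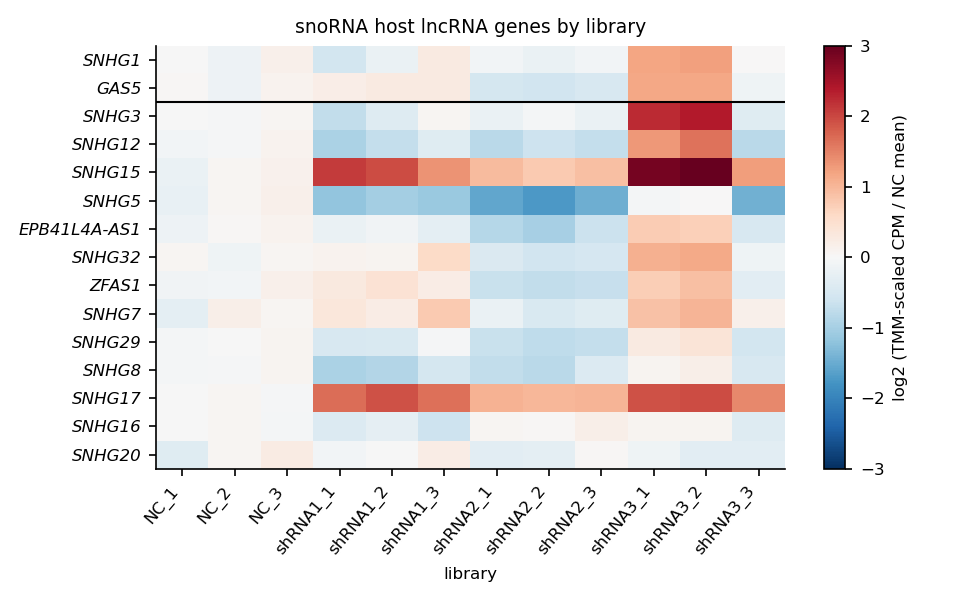
Log2 ratio of TMM-scaled CPM to the NC mean for SNHG1, GAS5 (above the line) and 13 other host genes of small nucleolar RNAs in each of the 12 libraries. The columns of shRNA3 libraries 1 and 2 are red for SNHG1, GAS5 and most of the other hosts, and the column of shRNA3 library 3 looks like those of shRNA1 and shRNA2.

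MIR31HG (ENSG00000171889, chromosome 9, 21455642 to 21559669, minus strand) is the host gene of miR-31, a microRNA well studied in oral carcinoma. The mature strand is printed with its seed, bases 2 to 8, in capitals, because it is cut from a hairpin inside MIR31HG. It lies at chr9:21512158-21512178 on the minus strand (RefSeq, GRCh38.p14).
hsa-miR-31-5p: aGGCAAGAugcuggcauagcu

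The counts bear on the host transcript and not on the microRNA: MIR31 was listed at 0 in all 12 libraries, and standard kits for long RNA do not capture mature microRNAs. MIR31HG stood at 4.80, 7.19 and 7.05 CPM in NC, at 2.39, 4.17 and 4.80 CPM in shRNA1 and at 3.45, 2.37 and 3.16 CPM in shRNA2. The shRNA2 libraries were all below NC, and those of shRNA1 met the lowest NC library. In shRNA3 it had 0, 17 and 70 counts, that is 0, 1.24 and 3.48 CPM. The log2 differences were -0.75, -1.08 and -1.96 for the 3 hairpins, with edgeR adjusted p of 0.417, 0.252 and 0.0538. With only the 6 libraries compared the first and second passed (log2 -0.74, adjusted p = 0.0418, and log2 -1.08, adjusted p = 0.000219). The last passed with a replicate block (log2 -2.28, adjusted p = 0.0366), and without shRNA3 library 3 (log2 -3.34, adjusted p = 0.000523). It also passed without shRNA3 library 1 (log2 -1.35, adjusted p = 0.0305) and by the DESeq2 Wald test (log2 -2.01, adjusted p = 0.0206). MIR31HG shares 306 bases with IFNWP19 on the other strand, which had at most 3 counts. MTAP, the nearest coding gene on the far side, had means of 83.8, 70.2, 54.0 and 39.7 CPM, with 27.4, 26.5 and 65.1 CPM in the shRNA3 libraries, and fell for shRNA3. The RefSeq promoter window of MIR31HG, chr9:21559749-21560048, is 77.7% G and C against a median of 58.7%, and holds 39 CG dinucleotides and 4 copies of GGGCGG.

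Of 14 other hosts of microRNAs, 12 passed the filter, and 3, 2 and 1 rose and 4, 5 and 6 fell against NC. Over all genes 26.8%, 24.6% and 26.4% rose and 30.6%, 28.4% and 27.6% fell. The median log2 difference of these hosts was -0.52, -0.91 and -1.17, against -0.02, -0.05 and -0.03 over all genes. Over the 2297 tested long non-coding RNAs other than the members it was -0.47, -0.40 and -0.14. MIR155HG, MIR29B2CHG and MIR34AHG fell for all 3 hairpins. MIR155HG had 18, 22 and 20 counts in NC and 0 to 3 in the hairpin libraries. MIR34AHG, the host of a microRNA induced by p53, fell from a mean of 2.01 CPM to 0.333, 0.15 and 0.124 CPM. MIR100HG rose for all 3, from 1.72 to 5.86, 4.47 and 4.12 CPM.

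LINC02434 (ENSG00000248370, chromosome 4, 188160065 to 188161139, plus strand) is an intergenic transcript near the end of the long arm. It had 0 counts in each NC library, which allows up to 0.152 CPM, and was present in every hairpin library. The values were 3.73, 4.41 and 3.15 CPM in shRNA1, 8.78, 10.4 and 8.31 CPM in shRNA2 and 85.9, 91.5 and 7.0 CPM in shRNA3. Against a floor of 3 counts per NC library the mean was at least 25-fold higher in shRNA1, at least 61.0-fold in shRNA2 and at least 408-fold in shRNA3. Library 3 of shRNA3 alone was at least 46.5-fold higher. The groups shRNA1 and shRNA2 did not overlap. TRIML1, the nearest coding gene on 1 side, is 12322 bases away and had at most 1 count. FRG1, the next on the other side, is 1779649 bases away.

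The start of LINC02434 is made of a tandem repeat, and it is printed for that reason. In the RefSeq window chr4:188159803-188160102 (plus strand), 85.2% of bases equal the base 50 positions further on. Only 66 of 35116 promoters, 0.188%, reach 80% at any offset from 20 to 100 bases. Capitals mark a run of 39 bases that occurs in 5 copies. None of the 5 motifs was found in it on either strand, which says only that these letters are absent from this window.
LINC02434: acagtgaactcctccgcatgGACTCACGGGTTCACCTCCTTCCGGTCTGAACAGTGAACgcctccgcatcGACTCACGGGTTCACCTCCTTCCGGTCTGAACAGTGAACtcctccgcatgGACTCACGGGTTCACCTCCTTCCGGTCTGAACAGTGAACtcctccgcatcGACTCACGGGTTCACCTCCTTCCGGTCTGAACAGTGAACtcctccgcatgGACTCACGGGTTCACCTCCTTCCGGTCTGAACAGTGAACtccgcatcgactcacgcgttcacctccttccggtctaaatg

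FAM230C (ENSG00000279516, chromosome 13, 18195297 to 18232024, plus strand) belongs to a family of transcripts spread by segmental duplication. Like LINC02434 it had 0 counts in each NC library and was present in all 9 hairpin libraries. It stood at 60.5, 61.8 and 44.9 CPM in shRNA1, at 35.9, 31.3 and 37.2 CPM in shRNA2 and at 15.7, 11.1 and 50.5 CPM in shRNA3. The mean was at least 370-fold higher in shRNA1, at least 231-fold in shRNA2 and at least 171-fold in shRNA3. Libraries 1 and 2 of shRNA3 were its lowest hairpin libraries, where for LINC02434 they were the highest. The transcript is not unique in the genome: 94.1% of its 1970 bases lie in stretches at least 95% identical to other FAM230 genes, with FAM230G, FAM230H and FAM230B at 96.4%, 96.7% and 96.6% over 1857 to 1871 bases. The 9 other FAM230 genes in the table had at most 4 counts in any library. A processed pseudogene that overlaps FAM230C on the opposite strand had at most 5 counts. How the authors' counting divided reads between near-identical copies is not given, so the locus of origin is uncertain. Its RefSeq window, shown because it is the start of the other member with no counts in NC, is chr13:18195047-18195346 on the plus strand and has none of the 5 motifs. At its best offset 35.9% of its bases were repeated, near the median of 34.3%.
FAM230C: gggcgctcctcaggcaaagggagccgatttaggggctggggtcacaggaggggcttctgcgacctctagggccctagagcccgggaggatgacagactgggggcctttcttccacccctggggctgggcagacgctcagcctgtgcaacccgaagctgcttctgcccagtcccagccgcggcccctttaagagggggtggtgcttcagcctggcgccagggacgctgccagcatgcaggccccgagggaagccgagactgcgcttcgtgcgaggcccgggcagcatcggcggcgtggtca

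KLF3-AS1 (ENSG00000231160, chromosome 4, 38612701 to 38664883, minus strand) overlaps KLF3, the gene of a zinc-finger repressor, on the opposite strand. It was at 0.707, 1.67 and 1.88 CPM in NC, at 0.547, 1.50 and 0.568 CPM in shRNA1 and at 1.46, 0.789 and 1.38 CPM in shRNA2, with overlapping groups. In shRNA3 it was at 114, 154 and 0.844 CPM, so that 2 libraries held 1539 and 2112 counts and the third of the same group held 17. KLF3 had means of 89.9, 76.5 and 68.9 CPM in NC, shRNA1 and shRNA2, and 173, 173 and 92.2 CPM in the shRNA3 libraries, where it rose (log2 0.70, edgeR adjusted p = 0.0248). A stretch of 267 bases of KLF3-AS1 is the exact complement of KLF3 exon sequence, 11.3% of its longest transcript, and reads from it could have been given to either gene.

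Across the 9 hairpin libraries, shRNA3 libraries 1 and 2 were above the other 7 for 5 of the 7 long non-coding RNAs with no recorded choice by value, where 28.8% of all genes were, and below for 1, where 29.9% of all genes were. LINC02434 and KLF3-AS1 were also above and FAM230C below. LINC02434 was chosen by its shRNA3 values and KLF3-AS1 may have been, so these are not counted. The ratio of means was 132 for KLF3-AS1, 13.5 for LINC02434, 5.83 for MALAT1, 4.33 for NEAT1, 2.49 for SNHG1, 2.40 for GAS5 and 1.65 for UCA1. MIR31HG was 5.49-fold lower and FAM230C 3.43-fold lower. With library totals 4 of the 7 were above, UCA1 no longer, where 17.9% of all genes were. MIR31HG was below, as were 7112 of the 17532 tested genes. The 10 genes together held 0.276% to 0.283% of all counts in these 2 libraries, 0.102% in shRNA3 library 3 and 0.0881% to 0.134% over the 7 other hairpin libraries. In NC they held 0.177% to 0.271%.

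**Figure D4:**
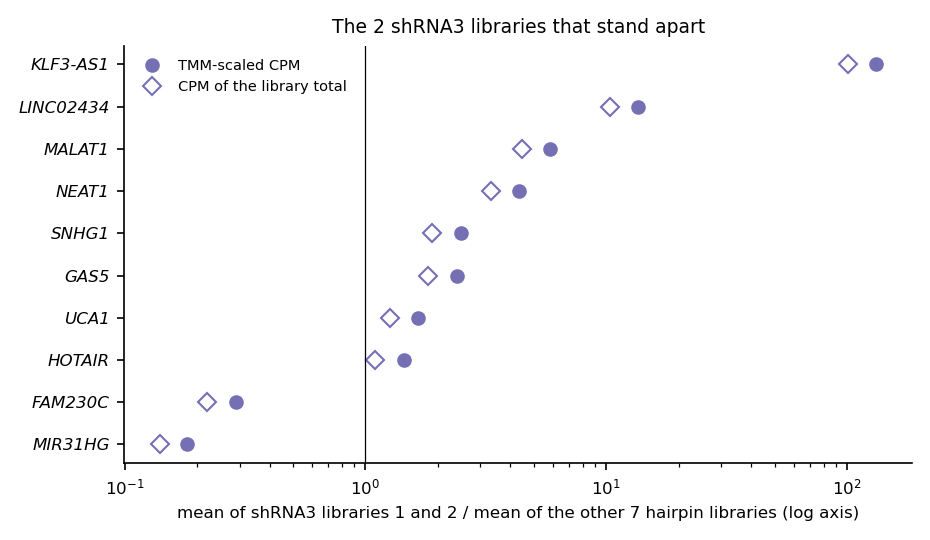
Mean CPM of shRNA3 libraries 1 and 2 over the mean of the other 7 hairpin libraries for each long non-coding RNA (log axis), with TMM scaling (filled) and with library totals (open). KLF3-AS1 is highest at 132, and MIR31HG and FAM230C are the only genes left of 1.

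Between pairs of hairpins, no member of 7 passed the edgeR test for shRNA1 against shRNA2, where 12.3% of all genes passed. For shRNA1 against shRNA3, 3 of 7 passed, where 30.0% of all genes did, 18.1% lower in shRNA1: MALAT1, NEAT1 and SNHG1 were lower in shRNA1. For shRNA2 against shRNA3, 2 of 7 passed, where 8.34% did, 6.43% lower in shRNA2: SNHG1 and GAS5 were lower in shRNA2. Each of these 5 calls rested on shRNA3 libraries 1 and 2, and none was made when shRNA3 library 3 alone stood for its group or with only the 6 libraries compared.

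Apart from the members, 2297 genes of long non-coding RNAs were tested, and 50.2%, 43.2% and 47.0% of them passed for shRNA1, shRNA2 and shRNA3, with 373, 342 and 463 higher and 779, 650 and 617 lower. Coding genes passed at 58.7%, 54.7% and 55.2%. The difference in share was not tested, and the median level of the non-coding genes was 0.03 log2 CPM against 4.58 for coding genes. Of 20 further long non-coding RNAs linked to cancer, 17 passed the filter, and 3, 5 and 6 rose and 6, 5 and 1 fell. Over all genes 26.8%, 24.6% and 26.4% rose and 30.6%, 28.4% and 27.6% fell. With library totals the shRNA3 counts of this list were 4 and 5. H19, an imprinted transcript of fetal tissue, rose the most of them: it had 3.33, 4.88 and 4.82 CPM in NC and from 4696 to 14021 CPM in the hairpin libraries, up to 1.11% of a library. LUCAT1 and JPX also rose for all 3 hairpins, and AFAP1-AS1 fell for all 3. NORAD, an abundant cytoplasmic RNA, fell for shRNA1 and shRNA2, with means of 562, 233 and 298 CPM in NC, shRNA1 and shRNA2 and with 493, 434 and 298 CPM in the shRNA3 libraries. TUG1 did so with means of 149, 80.9 and 88.9 CPM and with 144, 122 and 85.7 CPM in the shRNA3 libraries.

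The genes whose levels followed each member most closely over the 12 libraries were ranked by Pearson's r among 14678 genes with a mean of at least 1 CPM, as a description. For NEAT1 they were ZMIZ2 (r = 0.989) and GARS1-DT (0.988). For UCA1 they were TPM4 (0.990), a tropomyosin gene also on chromosome 19, and SMS (0.987), the spermine synthase gene. SNHG1 was closest to MYEOV (0.978) and to SNHG3 (0.970), and GAS5 to SNHG32 (0.977) and ADAM8 (0.973), so that each had another snoRNA host among its closest 2. MALAT1 was closest to SPNS2 (0.963), HOTAIR to ZNF664 (0.972), MIR31HG to ZSCAN31 (0.959), LINC02434 to PTK6 (0.996) and KLF3-AS1 to SRP14 (0.986). FAM230C was closest to ZNF468 and SLC20A2 (both 0.998), each also at 0 CPM in NC, and 496 genes had an r over 0.95 with it, the most for any member. The fewest were 2, for MIR31HG. Libraries of a group, the NC libraries and the 2 libraries apart share most of these patterns.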

How the data were processed

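RNA sequencing libraries were made from SCC-15 cells with the NEBNext Ultra RNA kit, per the labels' protocols. The deposited table holds estimated counts by gene as the authors left them, unscaled, and 13.8% of its values are not whole. The submitters' processing notes name HISAT2, HTSeq 0.11.2 and GRCh38 without saying how each was used, and whether counting took strand into account is not given in the sources used here. The deposited counts were rounded to whole numbers. Groups and replicate numbers came from the sample titles, and all 12 columns matched a title.

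Counts were scaled by TMM and filtered with edgeR's filterByExpr (minimum count 10, minimum total 15), which left 17532 of 61044 genes. Tests were two-sided edgeR quasi-likelihood tests (R 4.3.3, edgeR 4.0.16, limma 3.58.1) in a single model of 4 groups over 12 libraries, with Benjamini-Hochberg adjustment over all tested genes and a threshold of 0.05. Intervals of 95% on log2 differences used 8 residual degrees of freedom. The floor of 3 counts per library for a gene at 0 covers counting error only. The code was tested on simulated counts. Positions and exon lengths came from GENCODE release 29, sequences from RefSeq, and copies from blastn 2.17.0 (at least 95% identity over 200 bases).

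The members, the gene lists and the tests were chosen with earlier results of these data known. Genes named beside the members were the overlapping and nearest coding genes, up to 4 of each list called for all 3 hairpins in 1 direction, and the 2 with the most similar levels. NONO, SFPQ, EZH1, RBBP4, HOTAIRM1, NORAD, TUG1 and the marker genes were named outside that rule, after their values were seen. The same holds for SNHG3, SNHG5, SNHG7, SNHG12, SNHG15, SNHG16, SNHG20 and EPB41L4A-AS1. Some genes that the rule names are not reported here. Alternatives were a replicate block, size factors from DESeq2 (1.42.0) in place of TMM, all genes kept whatever their count, DESeq2's Wald test, a fit on the 6 libraries compared, each library left out, shRNA3 library 3 alone, and, added after seeing the data, library totals without TMM factors. Replicate numbers did not pair libraries: residuals of same-numbered libraries correlated at -0.0663 to 0.052 over 18 pairs.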

Additional observations from a re-analysis of the deposited data

Results flagged for a closer look

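In 5 cases the test of 1 hairpin group against another passed the threshold. The log2 difference of shRNA1 from shRNA3 was -2.50 for MALAT1 (edgeR adjusted p = 0.00984), -2.02 for NEAT1 (adjusted p = 0.0119) and -1.03 for SNHG1 (adjusted p = 0.0234). The log2 difference of shRNA2 from shRNA3 was -1.04 for SNHG1 (edgeR adjusted p = 0.0497) and -1.37 for GAS5 (adjusted p = 0.0269). In each case the 2 libraries of shRNA3 numbered 1 and 2 were above all 7 other hairpin libraries, and shRNA3 library 3 was not. With library 3 alone the differences were -0.50, -0.32, -0.16, -0.16 and -0.40 in the same order, and none passed. With only the 6 libraries compared none passed either (edgeR adjusted p of 0.117 to 0.206).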

How the results depend on the processing

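The number of members called of 7 depended on shRNA3 library 3 and on how the spread was estimated. With only the 6 libraries compared it was 5 for shRNA2 against NC, 1 for shRNA3 against NC, 3 for shRNA1 against shRNA2, 0 for shRNA1 against shRNA3 and 0 for shRNA2 against shRNA3. With shRNA3 library 3 alone it was 1, 0 and 0 for shRNA3 against NC, shRNA1 and shRNA2, where the lone library is assumed to vary like the other groups. In that fit the GAS5 difference of shRNA3 from NC reversed to -0.11 (edgeR adjusted p = 0.47), and that of MALAT1, not called, was -0.88. The DESeq2 Wald test called 1 for shRNA1 against shRNA2 and 4 for shRNA2 against shRNA3, and library totals without TMM factors called 1 and 1. The cause of these changes was not tested. The shares of all genes called in these fits are not given here. The counts therefore show how calls moved with the setting and set the members apart from no other genes.

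Leaving out 1 library at a time gave 2 to 4 members called for shRNA1 against NC, 2 to 2 for shRNA2 and 1 to 5 for shRNA3. For pairs it gave 0 to 1 for shRNA1 against shRNA2, 1 to 7 for shRNA1 against shRNA3 and 0 to 5 for shRNA2 against shRNA3. Counts of all genes called for the pairs in these fits are not given, so the pair ranges are no result about the members. Genes called ran from 8677 to 9698 for shRNA1, 7960 to 8174 for shRNA2 and 8314 to 13330 for shRNA3 against NC, the highest without shRNA3 replicate 3. The 5 pairwise calls were lost without 1 or another library, except that of MALAT1 for shRNA1 against shRNA3. NEAT1 in shRNA1 and shRNA2, HOTAIR in shRNA1 and UCA1 in shRNA2 kept their direction and call against NC under every alternative run.

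Same-numbered libraries share only a number. The fit with a replicate block called 1 member, not 2, for shRNA2 against shRNA3 (SNHG1 was lost, adjusted p = 0.0793), lost MALAT1 in shRNA1 against NC (log2 -1.42, adjusted p = 0.0565) and gained MIR31HG in shRNA3 (log2 -2.28, adjusted p = 0.0366). No member fell under the low-count filter, so the planned test for such a member was not run. Depth limited HOTAIR (6 to 50 counts), MIR31HG (0 to 146 counts) and KLF3-AS1 outside shRNA3 libraries 1 and 2 (11 to 37 counts), and LINC02434 and FAM230C had 0 counts in NC.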
